A study of Mus musculus with 1 sample.

Results

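The BCL2 family genes described here were Bcl2a1b, Bcl2a1d, Mcl1, Bcl2, Bcl2l1, Bcl2l11, Bax, Bak1, Bid and Bbc3, which were matched by gene symbol and made up 10 of the 11918 genes measured. They were followed across 2055 alveolar macrophages (AMs) from 1 single-cell RNA-seq library of adult mouse lung. The cells carried the wild-type label and were sorted as CD45+CD11c+SiglecF+ cells at an age of 8 to 12 weeks. By the study's account they came from 1 adult mouse, of an FVB/NJ line crossed back to C57BL/6 for over 10 generations. The paper itself names no FVB/NJ line and gives fewer generations of crossing back, for its Csf1r-iCre cross. By the study's methods this WT animal carried floxed Hdac3 alleles without Cre; the series text names Csf1rCre and the methods of the single-cell experiment name Cd11cCre for the knockout, which was not analysed here. With 1 library there was no replicate, so no test was run and every interval below is a 95% interval that covers counting error only.

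Proteins of the BCL2 family decide whether the outer mitochondrial membrane stays intact. The survival proteins (BCL2, BCL-XL, MCL1 and A1) bind and hold back their death-promoting relatives, the effectors BAX and BAK form the pores that release cytochrome c, and the BH3-only proteins BIM, BID and PUMA link damage or loss of growth factors to the effectors. A1 and MCL1 are short-lived proteins, and A1 is known as a target of NF-κB in myeloid cells. NF-κB also drives transcription of Nfkbia, which encodes its inhibitor IκBα.

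In mice A1 is encoded by near-identical copies on chromosome 9. A stretch upstream of the start site is shown for the 4 copies because it shows how alike they are. It is in lower case, with the letters TGANTCA in capitals where present. These are a loose form of the AP-1 motif with a free middle letter, which is A wherever it is shown here. The sequences are from RefSeq promoter windows of GRCm38.p6, read 5′ to 3′ on the strand of the gene.
Bcl2a1b: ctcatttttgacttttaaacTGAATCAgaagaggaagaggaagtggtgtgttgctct
Bcl2a1d: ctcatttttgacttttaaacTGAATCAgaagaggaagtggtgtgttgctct
Bcl2a1a: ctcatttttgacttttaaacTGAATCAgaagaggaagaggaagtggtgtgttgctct
Bcl2a1c: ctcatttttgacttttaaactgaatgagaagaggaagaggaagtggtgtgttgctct
The stretch lay at chr9:89199089-89199145 on the plus strand for Bcl2a1b, chr9:88731934-88731984 on the minus strand for Bcl2a1d, chr9:88956780-88956836 on the plus strand for Bcl2a1a and chr9:114329885-114329941 on the plus strand for Bcl2a1c. The stretches of Bcl2a1b and Bcl2a1a were the same in all 57 bases, that of Bcl2a1d differed from them by 6 edits, and that of Bcl2a1c differed from them by 1 edit, which fell within the capital letters. Whether these letters work as an AP-1 site was not tested.

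The likeness extended to the 3′ end, where this assay counts molecules. Of the 98-base sequences (the length of the cDNA read) in the last 300 bases of Bcl2a1d transcripts, 81.8% also occurred in a transcript of Bcl2a1b or Bcl2a1a. The same share was 44.3% for Bcl2a1b and 37.4% for Bcl2a1a, both with Bcl2a1d. For Bax it was 13.2%, with the overlapping gene Gm45808, and for the other 9 genes followed, Nfkbia included, it was 0%. The division of UMIs (unique molecular identifiers, 1 for each captured mRNA molecule) between Bcl2a1b and Bcl2a1d is therefore uncertain, and values for the 4 copies summed are given beside theirs. Bcl2a1a and Bcl2a1c were not among the 10 genes and were followed for this reason. How reads that match more than 1 gene were counted is not given in the sources used here. If such reads were left out, the levels of Bcl2a1b, Bcl2a1d and Bcl2a1a, summed or not, are too low beside those of other genes. The same would hold for Bax, over a smaller share of its sequences.

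On GRCm38 the GENCODE gene bodies lay at chr9:89199209-89207827 for Bcl2a1b, chr9:88723285-88731914 for Bcl2a1d, chr3:95658788-95663176 for Mcl1, chr2:128126038-128162547 for Bcl2l11 and chr7:45461697-45466898 for Bax. Bcl2a1b overlapped Gm29094 on its own strand over 8449 bases, and Bax overlapped Gm45808 over 915. Bak1 and Bid overlapped Ggnbp1 and Bcl2l13 on the opposite strand, and use of strand in counting is not given in the sources used here.

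The library held 7222978 UMIs, with 1143 to 8603 UMIs and 528 to 2495 genes per cell, and medians of 3278 and 1454. In a cell of median depth 1 UMI stands for 3.05 UMIs per 10000, the unit of level used here. A UMI count does not scale with transcript length, so levels of different genes can be set side by side. The A1 copies, and Bax with a smaller shared part, are exceptions, because their shared sequences may lower their counts. The mitochondrial share ran from 0.0343% to 21.6% of UMIs with a median of 3.21%, and 384 cells (18.7%) exceeded 5%. All 12 AM markers examined were measured and every cell held UMIs of them, whereas none of the 5 T cell markers was listed and monocyte or interstitial macrophage markers gave 93 UMIs in all. The secretory epithelial genes Sftpc and Scgb1a1, which macrophages should lack, had a UMI in 6.86% and 5.50% of cells, Epcam had one in 58.1%, and 1 cell held 940 of the 1006 Jchain UMIs. At shares like those of Sftpc free RNA cannot be told apart from low expression.

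Survival genes dominated the family, through the A1 copies and Mcl1. Bcl2a1b gave 5965 UMIs, or 8.26 per 10000 (8.05 to 8.47), and was detected in 83.9% of cells. Mcl1 gave 5254 UMIs, or 7.27 per 10000 (7.08 to 7.47), and was detected in 86.6% of cells. Bcl2a1d gave 4110 UMIs, or 5.69 per 10000 (5.52 to 5.87), in 74.5% of cells. The intervals of these 3 genes did not overlap, and over all genes they ranked 187, 215 and 275 by UMIs in the order Bcl2a1b, Mcl1 and Bcl2a1d. Across single cells the level of Bcl2a1b had a median of 6.87 and a highest value of 48.3 per 10000, and that of Mcl1 a median of 6.63 and a highest value of 56.3.

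Bcl2l1, which encodes BCL-XL, gave 139 UMIs, or 0.192 per 10000, in 6.37% of cells. Bcl2, the founding gene of the family, was nearly absent, with 4 UMIs in 4 cells (0.195%, 0.0531% to 0.498%). Of these 4 cells, 1 held 5 UMIs of AM markers, a level per 10000 that only 2 of the 2055 cells were below, and another held 30, with 20 cells below it. The remaining pair held 109 and 85. None of the 4 held a UMI of the 3 B or plasma cell markers measured. No T cell marker was measured, so the 4 cells could not be checked for those. The cell with 30 AM marker UMIs also held 6 UMIs of epithelial markers, and the cell with 85 held 1. A share of cells this small lies below the 6.86% of Sftpc in the same cells and cannot be told apart from free RNA. The same holds for Bid and Bbc3, and for Bcl2l1 and Bak1, whose shares lay near that of Sftpc.

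Among the death genes the effector Bax was highest, with 2054 UMIs, or 2.84 per 10000 (2.72 to 2.97), in 58.5% of cells. Bak1, the other effector, gave 151 UMIs, or 0.209 per 10000, in 6.91% of cells, close to the share of Sftpc. Bcl2l11, which encodes the BH3-only protein BIM, gave 1299 UMIs, or 1.80 per 10000 (1.70 to 1.90), in 39.8% of cells. Bid, which encodes the link from death receptors to mitochondria, gave 45 UMIs (0.0623 per 10000), and Bbc3, which encodes the p53-induced protein PUMA, gave 34 (0.0471 per 10000). The intervals of Bcl2l1 and Bak1 overlapped, as did those of Bid and Bbc3, and neither pair can be ordered at this depth.

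**Figure D1:**
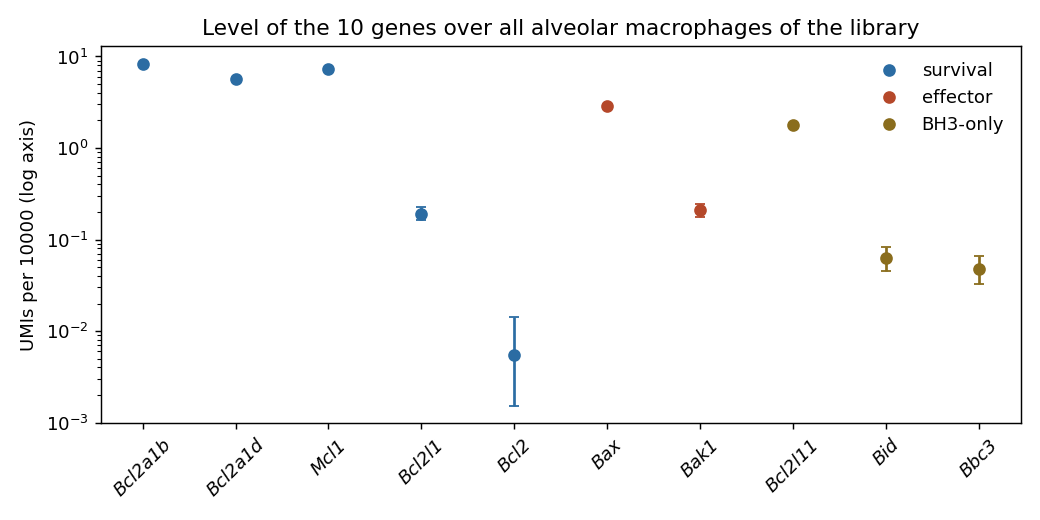
UMIs per 10000 (log axis) of the 10 genes summed over 2055 AMs of 1 library; points are coloured by role and bars are exact Poisson 95% intervals. Bcl2a1b (8.26), Mcl1 (7.27) and Bcl2a1d (5.69) lie above Bax (2.84) and Bcl2l11 (1.80), and the other 5 genes lie at or below 0.209.

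The genes differed in how unevenly their UMIs were spread. The variance of UMIs per cell divided by their mean was 2.46 for Bcl2a1b against 1.51 from differences in cell depth alone, 2.06 against 1.35 for Bcl2a1d and 1.64 against 1.11 for Bcl2l11. For Mcl1 it was 1.62 against 1.45, and for Bax 1.26 against 1.18. Of these 5 genes Mcl1 and Bax stayed nearest to what depth gives. The other 5 had 151 UMIs or fewer and values between 0.979 and 1.06, near the 1 that any sparse gene has. Nfkbia, at 3.92 per 10000 and in 53.3% of cells, reached 4.89 against 1.24.

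Which survival gene led depended on how cells were weighted. Of the 15472 UMIs of the 5 survival genes, Bcl2a1b held 38.6% (37.8% to 39.3%), Mcl1 34.0% (33.2% to 34.7%), Bcl2a1d 26.6%, Bcl2l1 0.898% and Bcl2 0.0259%. When each cell counted equally the order of the first pair turned, with a mean share of 37.7% for Mcl1 and 36.5% for Bcl2a1b. Bcl2a1b alone had most UMIs in 673 cells (32.7%), Mcl1 in 636 (30.9%) and Bcl2a1d in 264 (12.8%), while 434 cells were tied and 48 had no survival UMI. Summed over the 4 copies, A1 gave 13822 UMIs, or 19.1 per 10000. That was 2.63 (2.55 to 2.72) UMIs for each Mcl1 UMI, and A1 exceeded Mcl1 in 1549 cells (75.4%). If reads shared between copies were left out of the counts, these A1 values are too low.

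Among the 10 genes survival UMIs outnumbered death UMIs 15472 to 3583, a ratio of 4.32 (4.16 to 4.48). With Bcl2a1a and Bcl2a1c it was 5.36, which adds genes to the survival side only. Other BCL2 family genes, among them Bnip3l (3226 UMIs) and Bad (330 UMIs), were in neither sum, so both ratios depend on the list. A cell held a median of 7 survival UMIs and 1 death UMI. Survival UMIs were in excess in 1849 cells (90.0%), the numbers were equal in 104, and death UMIs were in excess in 84 (4.09%). The 18 cells with no UMI of any of the 10 genes were shallow, with a median of 1455 UMIs and a mitochondrial share of 8.82%. These ratios are of mRNA molecules and say nothing of protein.

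Detection of a pair of genes in the same cell was close to what their shares at a given depth provide. For the 7 genes with 100 or more UMIs, the number of cells holding both genes of a pair was divided by the number given by the product of their shares within 10 equal bins of cell depth. Over the 21 pairs this ratio ran from 0.794 to 1.05 with a median of 1.00. For genes found in most cells the count of shared cells is near its ceiling and the ratio has little room above 1, and an interval on such a count is wide, so that all 21 intervals held 1 does not show that the genes were unrelated. Bcl2a1b and Bcl2a1d were both found in 1367 cells (66.5%), a ratio of 1.02 (0.970 to 1.08). Bcl2l11 and Bak1 gave the lowest ratio, 0.794 (0.589 to 1.05), on 50 cells.

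The levels of the A1 copies were correlated with each other more than with that of Mcl1. The Pearson r of the deposited log values over 2055 cells, which share a library and vary in depth, was 0.290 between Bcl2a1b and Bcl2a1d, 0.225 between Bcl2a1b and Bcl2a1a and 0.227 between Bcl2a1d and Bcl2a1a. It was 0.0222 between Bcl2a1b and Mcl1 and 0.0165 between Bcl2a1d and Mcl1. After thinning of the 1756 cells that had at least 2000 UMIs to that number, r was 0.192 for Bcl2a1b with Bcl2a1d. It was 0.125 for Bcl2a1b with Bcl2a1a and 0.106 for Bcl2a1d with Bcl2a1a. With Mcl1 it was -0.0126 for Bcl2a1b and -0.0324 for Bcl2a1d. The part of the 3′ sequences shared between copies in these values was not tested. Among 4022 genes detected in at least 10% of cells, the 5 most like Bcl2a1b were Bcl2a1d, Fcer1g (0.253), Uqcrb (0.249), Rpl10 (0.244) and B2m (0.236). For Bcl2a1d they were Bcl2a1b, Bcl2a1a, S100a11 (0.224), Cd9 (0.216) and Uqcrb (0.211).

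The same measure was taken for Mcl1, Bax and Bcl2l11 after their values were seen. The genes most like Mcl1 included the immediate-early genes Junb (0.160) and Dusp1 (0.147), and the one most like Bax was the p53 target Cdkn1a (0.112). Those most like Bcl2l11 were the cytokine gene Tnf (0.138), Nfkbiz (0.137), the chemokine gene Cxcl2 (0.133), Tnfaip3 (0.118) and Egr1 (0.112). These values are small, and Bcl2a1b was not among the genes most like any of the 3.

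The levels of the A1 copies and of Mcl1 went in opposite directions with cell depth. Bcl2a1b stood at 6.03 per 10000 in the shallowest 25% of cells (514 cells, median 1895.5 UMIs), at 8.01 in the cells between and at 9.29 in the deepest 25% (514 cells, median 5423.5 UMIs), a ratio of 1.54 (1.41 to 1.69). Bcl2a1d went from 4.34 through 5.48 to 6.39, a ratio of 1.47. Mcl1 went from 8.30 through 7.29 to 6.91, a ratio of 0.833 (0.767 to 0.906). A ratio of 1.5 or more was reached by 1 of the 7 genes tested, Bcl2a1b, against 4.75% of the 6147 genes with 100 or more UMIs, and none was lower by that factor, against 7.69%. Of the 7 genes 5 had ratios above 1, against 39.5% of all genes tested, whose median ratio was 0.934.

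The leading survival gene differed with depth. Mcl1 held 44.0% of survival UMIs in the shallowest 25% of cells and 30.3% in the deepest, and Bcl2a1b held 32.0% and 40.8%. A1 gave 1.78 UMIs for each Mcl1 UMI in the shallowest 25% and 3.11 in the deepest. Whether cell size, capture or cell state sets the depth of a cell cannot be told apart here. Bax (2.92 and 2.78 per 10000) and Bcl2l11 (1.78 and 1.81) had ratios of 0.954 (0.831 to 1.10) and 1.02 (0.854 to 1.22) between the deepest and the shallowest cells.

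**Figure D2:**
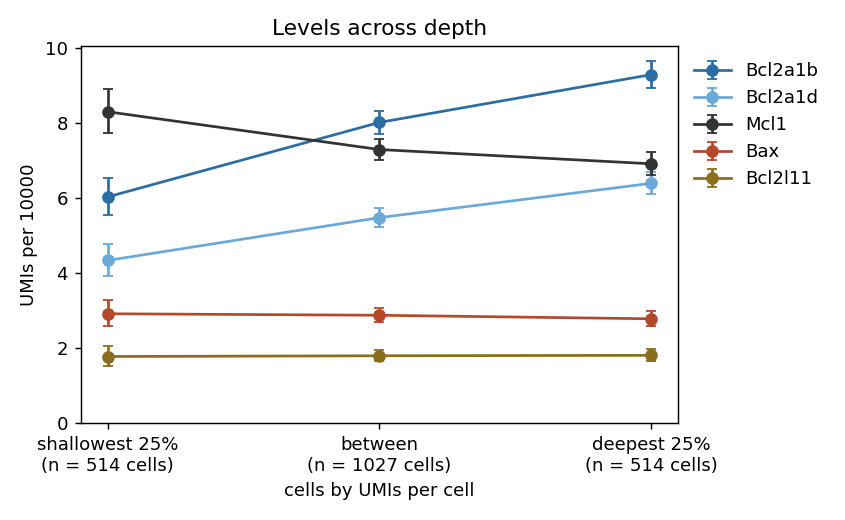
UMIs per 10000 of 5 genes in the shallowest 25%, the cells between and the deepest 25% of AMs by UMIs per cell; bars are exact Poisson 95% intervals. Bcl2a1b climbs from 6.03 to 9.29 and Bcl2a1d from 4.34 to 6.39, while Mcl1 goes from 8.30 to 6.91.

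The relation to NF-κB was read from Nfkbia. The lowest 25% of cells by Nfkbia were at 0, so the 960 cells with no Nfkbia UMI (median 2915 UMIs) were compared with the highest 25% (514 cells, median 3254.5 UMIs). Bcl2a1b stood at 7.60 per 10000 in cells without Nfkbia, 8.19 in the 581 cells between and 9.46 in the highest 25%, a ratio of 1.24 (1.17 to 1.33). Bcl2a1d stood at 5.27, 5.96 and 6.03, a ratio of 1.14 (1.06 to 1.24). Mcl1 stood at 7.26, 7.21 and 7.38, a ratio of 1.02 (0.948 to 1.09). In cells thinned to 2000 UMIs, and divided by their thinned Nfkbia counts, the ratio was 1.06 (0.982 to 1.14) for Bcl2a1b and 1.05 (0.960 to 1.15) for Bcl2a1d, so that neither was distinguishable from 1 there. Mcl1 had a ratio of 1.07 (0.990 to 1.16) in the thinned cells, so the A1 copies did not stand apart from it. Within the cells above and below the median depth the ratio was 1.21 in both for Bcl2a1b, with intervals above 1, and 1.15 and 1.07 for Bcl2a1d, the last with an interval that holds 1. For Mcl1 it was 1.11 (1.02 to 1.22) above the median depth and 0.929 (0.829 to 1.04) below it.

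Of the 3 death genes tested, Bcl2l11 alone had an interval above 1, at 1.61, 1.66 and 2.30 per 10000, a ratio of 1.44 (1.26 to 1.64). Bax stood at 2.94, 2.83 and 2.69, a ratio of 0.916 (0.818 to 1.02), and Bak1 had a ratio of 0.966. Bcl2l1, detected in a share of cells near that of Sftpc, had 46 UMIs in either group and a ratio of 1.68 (1.09 to 2.58). It was the 1 gene of 7 past 1.5-fold, against 2.10% of 6146 genes higher and 2.38% lower, and its ratio was 1.34 in cells with at most 5% mitochondrial UMIs. Of the 7 genes 5 had ratios above 1, against 43.9% of all genes tested, and their median was 1.14, beside 0.980 over all genes. Bid (18 and 7 UMIs) and Bbc3 (15 and 4 UMIs) were under the minimum for a comparison.

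The split separated cells by other NF-κB genes as well. Of 11 NF-κB genes tested 7 were at least 1.5-fold higher in the cells highest in Nfkbia, none lower, with a median ratio of 1.77; Tnfaip3, an inhibitor of NF-κB signalling, had a ratio of 3.00. Immediate-early genes, which respond to cell handling, summed to 53.1 per 10000 in cells without Nfkbia and 63.9 in the cells highest in it, and their part in the values above was not tested. Of the remaining apoptosis genes, 1 of 12 caspase and apoptosome genes (Apaf1, at 1.60) and 1 of 8 inhibitor of apoptosis genes (Birc5, which also acts in mitosis, at 2.38) were higher, and Apaf1 is named after its value was seen. None of 7 other BCL2 family genes, 6 death receptor genes or 6 p53 genes passed 1.5-fold.

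Promoter letters were set beside the Nfkbia split. A loose κB-type pattern (GGG, any 2 letters, then TTTCC) was searched on both strands. The RefSeq windows ran from 250 bases before to 50 after each start. The pattern occurred in 1.63% of 32851 windows, and in windows of Mcl1, Bcl2l1, Bbc3 and Nfkbia. Mcl1 and Nfkbia are shown because both held the pattern near the start, and the Pearson r of their log values over cells was 0.0101. Read along the pattern, the 2 free letters were CG in Mcl1 and AA in Nfkbia. Whether either stretch works as a κB site was not tested. The matched letters are in capitals and appear as the reverse complement of the pattern.
Mcl1: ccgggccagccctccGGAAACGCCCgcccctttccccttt
Nfkbia: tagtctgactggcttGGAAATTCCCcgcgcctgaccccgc
These lie at chr3:95658678-95658717 on the plus strand and chr12:55492652-55492691 on the minus strand of GRCm38.p6. TGANTCA occurred in 7.81% of windows, and among the genes followed in those of Bcl2a1b, Bcl2a1d and Bcl2a1a. The cyclic AMP response element TGACGTCA (1.79% of windows) was found in none of them. A match is a match of letters and not a measured site, and no match says only that the letters are not in the window.

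The mitochondrial share, which is often raised in damaged cells, was set against levels per 10000 UMIs from other genes. The cells were divided into 4 groups of 25%, from a median share of 2.02% (514 cells) to 5.89% (514 cells). From the lowest to the highest group Bcl2a1b stood at 9.39, 9.06, 8.47 and 7.18, a ratio of 0.764 (0.707 to 0.827). Bcl2a1d stood at 5.91, 6.32, 6.37 and 4.80, a ratio of 0.813 (0.737 to 0.895), and its interval in the highest group lay below those of the other 3. Mcl1 stood at 7.71, 7.50, 7.20 and 7.89, a ratio of 1.02 (0.944 to 1.11). The highest group was also the shallowest, with a median of 2807 UMIs per cell against 3055.5 in the lowest. In cells thinned to 2000 UMIs the ratio was 0.771 (0.692 to 0.860) for Bcl2a1b, 0.819 (0.716 to 0.936) for Bcl2a1d and 1.01 (0.904 to 1.12) for Mcl1, about as large as in all cells. Within the cells above and below the median depth it was 0.785 and 0.765 for Bcl2a1b, and 0.848 and 0.852 for Bcl2a1d. For Mcl1 it was 1.08 (0.980 to 1.19) above the median depth, with an interval that holds 1, and 0.866 (0.756 to 0.992) below it.

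No death gene tested had an interval above 1 by mitochondrial share. Bax stood at 3.20, 3.03, 2.93 and 2.62 per 10000, a ratio of 0.819 (0.718 to 0.935), and Bcl2l11 at 1.91, 1.92, 1.81 and 1.82, a ratio of 0.956 (0.811 to 1.13). Bak1 had a ratio of 1.25 (0.776 to 2.02) and Bcl2l1 one of 1.32 (0.816 to 2.15), both with intervals that hold 1. Bbc3 had 6 UMIs in the lowest and 12 in the highest group and Bid 10 and 12. None of the 7 genes tested passed 1.5-fold, against 6.98% of 6135 genes higher and 1.86% lower, 3 had ratios above 1, against 60.1% of all genes, and their median was 0.956 beside 1.06 over all genes. In cells with at most 5% mitochondrial UMIs the ratio was 0.841 for Bcl2a1b and 1.02 for Bcl2a1d. Of 7 other BCL2 family genes 1 was higher (Bcl2l2, 23 and 31 UMIs) and 1 lower (Bcl2a1c, 69 and 40 UMIs), and of 6 p53 genes 1 was higher (Phlda3, 32 and 48 UMIs), all named after their values were seen. None of 12 caspase and apoptosome genes or 6 death receptor genes passed 1.5-fold, and Birc5 was the 1 of 8 inhibitor of apoptosis genes that was lower, at 0.492.

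Over single cells the Pearson r with the mitochondrial percentage was -0.219 for Bcl2a1b, -0.164 for Bcl2a1d and -0.0935 for Mcl1, and in the deposited scaled scores -0.168, -0.113 and -0.0763. In the same scores r with UMIs per cell was near 0 (8.3e-05 for Bcl2a1b), so depth had been removed from them, whereas a relation to the mitochondrial percentage as computed here remained. With Nfkbia r was 0.0957 for Bcl2a1b, 0.0722 for Bcl2a1d, 0.0905 for Bcl2l11 and 0.0101 for Mcl1. In the scaled scores it was 0.0582, 0.0351, 0.0754 and 0.000743 in the same order, with Bcl2l11 highest. In thinned cells it was 0.0480 for Bcl2a1b and 0.115 for Bcl2l11. In sparse counts values of this size are a description only.

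**Figure D3:**
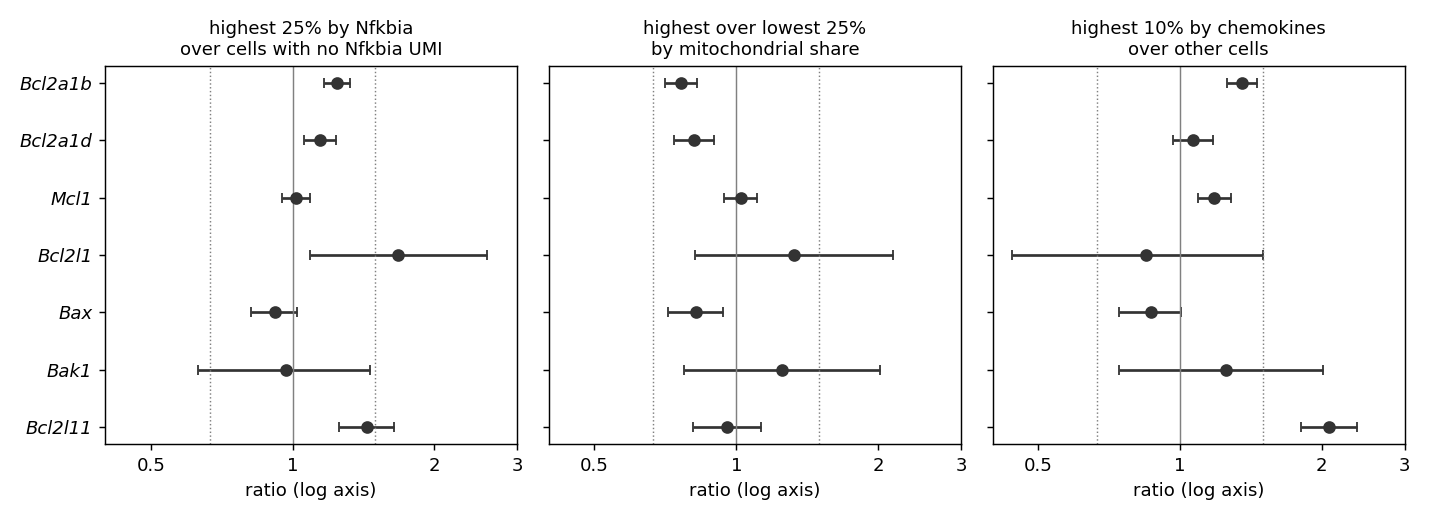
Ratio (log axis) of UMIs per 10000 between groups of AMs for the 7 genes with 100 or more UMIs, by Nfkbia, by mitochondrial share and by a chemokine list; bars are exact 95% intervals from counting error, the solid line marks 1 and the dotted lines 1.5-fold. Bcl2l11 stands at 2.07 in the chemokine panel and Bcl2a1b at 0.764 in the mitochondrial panel, while Mcl1 stands at 1.02 in both the Nfkbia and the mitochondrial panels.

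Bcl2l11 was higher in cells with high chemokine mRNA. The 206 cells in the highest 10% by summed UMIs of Cxcl1, Cxcl2, Cxcl3, Ccl3, Ccl4 and Tnf were compared with the other 1849. Bcl2l11 stood at 3.34 per 10000 (2.95 to 3.77) in these cells and 1.61 (1.51 to 1.71) in the others, a ratio of 2.07 (1.80 to 2.38). Bcl2a1b stood at 10.8 against 7.95, a ratio of 1.35 (1.26 to 1.46), Mcl1 at 8.44 against 7.13, a ratio of 1.18, and Bcl2a1d had a ratio of 1.07. Bax stood at 2.50 against 2.89, a ratio of 0.866 (0.744 to 1.00). Bcl2l11 was the 1 gene of 7 past 1.5-fold higher, against 2.80% of 6141 genes, and none was lower, against 7%, while 5 had ratios above 1, against 39.0%. Its ratio lay between 2.04 and 2.38 in the other settings tried, cells above and below the median depth and thinned cells included. Nfkbia had a ratio of 4.97, and immediate-early genes summed to 87.6 against 50.9 per 10000, whose part in the ratio was not tested. Among other apoptosis genes Cflar, which encodes the caspase-8 inhibitor cFLIP, had a ratio of 1.77. Mdm2, which encodes the ligase that degrades p53, had one of 1.53. Each was the 1 of 6 genes of its list, death receptor and p53, past 1.5-fold. Of 12 caspase and apoptosome genes 1 was higher and 1 lower. Of 8 inhibitor of apoptosis genes 1 was higher and 2 were lower, and none of 7 other BCL2 family genes passed 1.5-fold.

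Nfkbia and the chemokine class were then crossed, after their separate values were seen. Bcl2l11 stood at 1.60 per 10000 (1.49 to 1.71) in the 1485 cells high in neither and 1.65 (1.43 to 1.90) in the 364 cells high in Nfkbia alone. It stood at 2.40 (1.78 to 3.16) in the 56 cells high in chemokines alone and 3.68 (3.20 to 4.21) in the 150 high in both. The intervals of the cells high in neither and those high in Nfkbia alone overlapped, and that of the cells high in both lay above them. Bcl2a1b stood at 7.78, 8.69, 9.87 and 11.1 per 10000 in the same order, and Bax at 2.89, 2.86, 2.92 and 2.34.

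**Figure D4:**
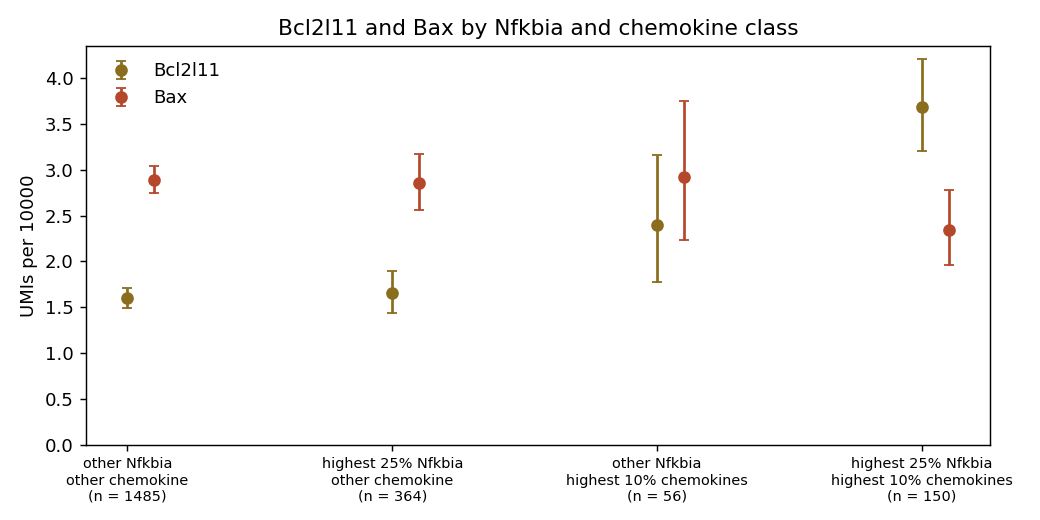
UMIs per 10000 of Bcl2l11 and Bax in AMs divided by Nfkbia (highest 25% or other) and by the chemokine list (highest 10% or other); bars are exact Poisson 95% intervals. Bcl2l11 stands at 1.60 and 1.65 outside the cells highest in chemokines and at 2.40 and 3.68 among them.

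In the 206 cells highest for cell cycle genes all 7 genes tested had ratios below 1, from 0.685 for Bcl2l1 (11 UMIs) to 0.976 for Bax, with Mcl1 at 0.838 (0.763 to 0.920). Mcl1 alone had an interval below 1, and the intervals of the others held 1. Of all genes tested 50.5% had ratios above 1. None of the 7 passed 1.5-fold, against 8.47% of 6138 genes higher and 5.43% lower. In the 206 cells highest for MHC class II genes the ratio was 1.04 for Bcl2a1b, 0.932 for Mcl1 and 1.10 for Bcl2l11. None of the 7 passed 1.5-fold there either, against 1.63% of 6143 genes higher and 7.10% lower, and 4 had ratios above 1, against 38.6%.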

How the data were processed

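AMs of 1 WT library were sequenced with the 10x Genomics Chromium 3′ v2 kit. Cell Ranger counts on mm10 were normalised in Seurat by the authors, and the deposited expression values are natural log values of UMIs scaled to 10000 per cell, with 1 added. A scaled score for every gene and cell was likewise deposited; the methods describe scaling on depth and mitochondrial content, but for several of the genes followed the scores kept a correlation with the mitochondrial percentage computed here. The methods describe removal of cells above 5% mitochondrial UMIs and of ribosomal protein genes, but 384 such cells and 108 such genes are present.

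UMIs were recovered from the log values (100% whole within 0.01 UMI). Levels are summed UMIs per 10000 with exact Poisson intervals, shares have Clopper-Pearson intervals, and ratios have exact conditional binomial intervals, all at 95%. A ratio of 1.5 or more either way among genes with 100 or more UMIs counted as a difference. Thinning drew 2000 UMIs per cell and left out 299 cells. Scripts were tested on simulated data. Doublets were not called. Positions are from GENCODE and RefSeq of GRCm38. Python 3.11.15, numpy 2.4.6, scipy 1.17.1 and pandas 2.3.3 were used.

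All 10 genes and Nfkbia are named, with at most 4 genes of each other list, those with most UMIs, and the 5 genes most like Bcl2a1b and Bcl2a1d. Outside this rule, the genes most like Mcl1, Bax and Bcl2l11, and those of other lists that passed 1.5-fold where few did, are named after their values were seen. The genes and lists were chosen with earlier results of these data known. Some alternatives, the depth groups, the summed copies and the crossed classes were chosen after seeing the data.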

Additional observations from a re-analysis of the deposited data

How the results depend on the processing

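No paired analysis was possible because there is 1 library. The share of survival UMIs moved to 36.5% for Bcl2a1b and 37.7% for Mcl1 as a mean over cells, and to 33.2% for Mcl1 in cells with at most 5% mitochondrial UMIs. The count of genes past 1.5-fold higher by Nfkbia, 1 as reported (Bcl2l1), was 0 in cells with at most 5% mitochondrial UMIs, with groups of 50% in place of 25% and in thinned cells, and 2 in cells above the median depth, where Bcl2l11 joined at 1.57. In the cells highest in chemokines 1 gene was lower (Bcl2l1, 0.637) in cells with at most 5% mitochondrial UMIs, and the ratio of Bcl2l11 was 2.38 in thinned cells. No called ratio changed direction. Of 56 recomputed ratios by Nfkbia 50 stayed within the interval reported, as did 51 of 56 by mitochondrial share and 47 of 49 by chemokines. Leaving out the 19 cells with 3 or more UMIs of another cell type's markers (epithelium aside) changed no count. With a minimum of 300 UMIs 1.52% of genes were higher and 0.217% lower by Nfkbia, and 2.30% and 0.777% by mitochondrial share; with 20 UMIs the shares were 6.39% and 7.50%, and 13.3% and 6.05%. Depth limits Bcl2, Bid and Bbc3, which had too few UMIs for any comparison.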
